A study of Mus musculus with 8 samples.

Results

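The question asked of each gene was whether a brief high fat diet (HFD) moved its level differently in adipose precursors (APs) of the visceral depot than in those of the subcutaneous depot. The measure was a difference of differences on log2 intensities, the HFD-minus-SD change in visceral APs (viAPs) minus the HFD-minus-SD change in subcutaneous APs (scAPs), where SD is standard diet. A positive value means that the change was more positive in viAPs, and 1 unit is 2-fold. It was computed for every probe set that the array's annotation ties to exactly 1 gene symbol, which was 21789 of 35556 probe sets and 19938 of 21335 genes. The RNA came from male C57BL/6J mice aged 7 to 8 weeks that ate SD or HFD for 3 days. viAPs were taken from perigonadal fat and scAPs from inguinal fat, and were purified with magnetic beads that first removed cells carrying CD45 or CD31 and then held cells carrying SCA-1. The 4 groups, SD scAPs, SD viAPs, HFD viAPs and HFD scAPs, had 2 arrays each, and every array held RNA pooled from 3 mice. Arrays are named here by the numbers 1 to 8 in the labels, which run through the groups in that order.

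White fat holds resident precursors that can divide and then mature into fat-storing adipocytes. Precursors of different depots keep different sets of developmental transcription factors, among them Tbx15 and the Hoxc genes in subcutaneous fat and Tcf21 and Wt1 in visceral fat. Preadipocytes committed to the lineage switch on Pparg, the master regulator of fat cell formation, and genes for fatty acid uptake and binding.

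All 7 measured genes of the AP marker list, such as Pdgfra, the receptor used to define these cells, were above log2 7 on at least 3 arrays. Their mean level was between 11.32 and 12.12 on each array, and their median diet by depot difference was 0.20, or 0.41 without SD viAP 4 and -0.08 without SD viAP 3. None of the 10 macrophage, 10 lymphocyte or 8 mature adipocyte markers passed that level. Other lists had members above it: 3 of 16 endothelial, 3 of 10 pericyte and smooth muscle, and 2 of 7 skeletal muscle markers. Also above it were 2 of 4 lymphoid stroma markers and 1 of 11 mesothelial markers. The globin genes of the erythroid list were not measured here. The study lists the globins Hba-a2 and Hbb-bs as higher on HFD in scAPs. The part of such cells in the HFD scAP results was not tested. The array labelled SD viAP 4 stood apart from its partner: levels on arrays 3 and 4 were at least 2-fold apart for 380 probe sets (1.74%), against 13 to 105 in the other pairs. Genes that mark the depots were at scAP levels on it, for instance Tbx15 at 9.77 against 4.70 on SD viAP 3 and 9.34 to 9.67 in scAPs. Whether the array holds the cells its label names was not tested, and the labels were kept. If it does not, every difference that uses all arrays is affected, and differences and list medians are therefore also given without it. That leaves 1 SD viAP array, whose spread is taken from the other groups. With pools and 2 arrays per group, p-values measure only the spread between these pools.

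The diet by depot difference was small for most genes. Its median was -0.01 on the log2 scale over all probe sets and 0.11 over the 7315 that were above log2 7 on at least 3 arrays, and 5th to 95th percentiles were -0.46 and 0.56. A difference of at least 2-fold was seen for 356 probe sets (1.63%), 237 of them positive and 119 negative. Only Col8a1 passed the test, at an adjusted p under 0.05 in limma with Benjamini-Hochberg adjustment over all 21789 probe sets and at least 2-fold (0.00459% called). The next smallest adjusted p was 0.143, and 1600 probe sets had an unadjusted p under 0.05. At that unadjusted threshold and at least 2-fold, 197 probe sets were positive (0.904%) and 89 negative (0.408%).

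The arrays nevertheless bounded the difference for most genes. Among probe sets above log2 7 on at least 3 arrays, 5647 (77.2%) had a 95% interval within 2-fold of no difference. Over all probe sets the median standard error (SE) was 0.23 and the 95% interval typically reached 0.51 to either side (median). For 18119 probe sets (83.2%) the whole interval lay within 2-fold of no difference, and without SD viAP 4 for 16753 (76.9%).

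With 2 arrays in each of 4 groups, the difference can be formed from single arrays in 16 ways, and a gene with 1 sign in all 16 does not depend on any single array for its direction. By this description, 213 probe sets were positive by at least 2-fold with 1 sign (0.978%) and 95 were negative (0.436%). Without SD viAP 4, over the 8 ways that remain, these counts were 156 (0.716%) and 88 (0.404%). Counted once per gene, 153 genes were positive (0.767%) and 92 negative (0.461%). Of the 213 positive probe sets, 116 (54.5%) were higher on HFD in viAPs on both arrays while the scAP arrays of the 2 diets overlapped, a pattern held by 12.7% of all 21789 probe sets. Another 55 (25.8%) were higher on HFD in viAPs and lower in scAPs, against 1.25% of all, and 37 (17.4%) were higher in both, against 14.9%. Of the 95 negative probe sets, 36 (37.9%) overlapped in viAPs and were higher on HFD in scAPs, against 5.45% of all. A further 35 (36.8%) were lower in viAPs and higher in scAPs, against 1.35%, and 14 (14.7%) were lower in viAPs and overlapped in scAPs, against 19.2%. These patterns use the values that chose the probe sets and are a description, with all arrays.

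The test for each depot alone gives the scale of these changes. HFD levels were higher in viAPs for 1841 probe sets (8.45%) and lower for 424 (1.95%) at an adjusted p under 0.05 in limma. In scAPs they were higher for 231 (1.06%) and lower for 24 (0.11%). Leaving out SD viAP 4 does not alter the scAP changes, but takes the residual degrees of freedom from 4 to 3. Counts that pass the test with and without that array are therefore not at the same power in either depot. Without SD viAP 4, the counts of higher probe sets were 198 in viAPs (0.909%) and 33 in scAPs (0.151%).

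**Figure D1:**
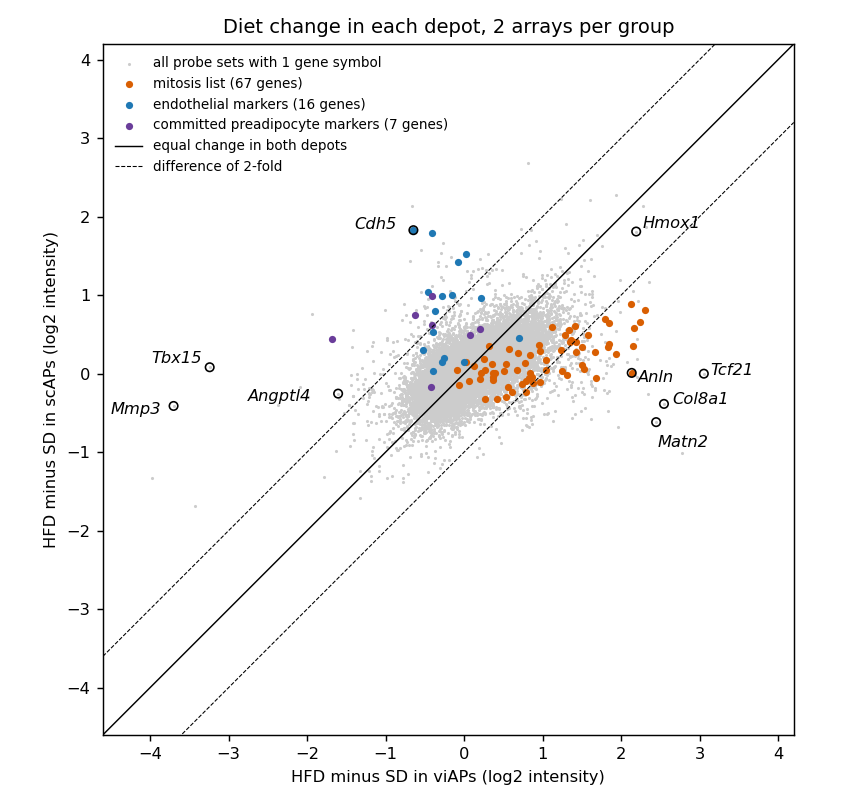
Diet change in each depot for the 21789 probe sets with 1 gene symbol, with HFD minus SD in viAPs on the x axis and in scAPs on the y axis (both log2 intensity, means of 2 arrays per group). The 67 mitosis genes spread to the right with a median scAP change of 0.12, and some, such as Ccnb2 (0.64), were higher in scAPs too. Most of the 16 endothelial markers lie above the line of equal change, and Hmox1 lies between the dashed 2-fold lines.

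Col8a1 encodes a short-chain collagen of basement membranes and vessel walls. Its log2 intensity was 6.54 and 6.58 in SD scAPs, 6.09 and 6.27 in HFD scAPs, 6.60 and 6.73 in SD viAPs, and 9.26 and 9.16 in HFD viAPs. The 2 HFD viAP arrays stood more than 2 units above the 6 others, and the 2 SD viAP arrays lay close to each other and to SD scAPs. In viAPs Col8a1 rose by 2.55 (adjusted p = 0.000432), while the scAP change was -0.38 (adjusted p = 0.185). The diet by depot difference was 2.93 (SE 0.18, 95% interval 2.51 to 3.35, adjusted p = 0.00242 in limma), and from single arrays it ran from 2.71 to 3.15. Without SD viAP 4 it was 3.00, but its adjusted p was 0.0561 in the smaller design. Leaving out each array in turn gave 2.84 to 3.02, and the call was kept only without SD viAP 3. Col8a2, which encodes the partner chain, had a difference of 0.12, or 0.04 without SD viAP 4. The Col8a1 promoter is printed because this gene alone passed the test (RefSeq sequence, GRCm38.p6, chr16:57754688-57754987, minus strand, 250 bases before to 50 after the start, read 5′ to 3′). It holds neither of the motifs searched in the mitosis genes, TTTGAA and CCAAT, on either strand.
Col8a1: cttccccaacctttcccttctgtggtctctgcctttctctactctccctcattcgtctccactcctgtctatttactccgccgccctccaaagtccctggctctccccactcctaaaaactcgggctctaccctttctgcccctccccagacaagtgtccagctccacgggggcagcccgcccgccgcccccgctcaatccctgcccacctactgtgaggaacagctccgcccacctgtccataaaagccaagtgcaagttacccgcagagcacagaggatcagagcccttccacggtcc

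The mitosis list, genes of the spindle, kinetochore, mitotic kinases and cytokinesis, had the most members with a positive difference among the gene lists used. Of its 67 measured members, 64 (95.5%) had a positive difference, against 47.1% of all 19938 genes. Positive by at least 2-fold with 1 sign in all 16 single-array differences were 24, against 0.767% of all genes. The median difference was 0.85, and without SD viAP 4 it was 0.75 with 21 such genes. In viAPs 48 members (71.6%) rose, against 8.45% of all probe sets, and without SD viAP 4 12 rose, against 0.909%. The median viAP change over the list was 0.88. In scAPs 0 rose, against 1.06% of all probe sets, with a median change of 0.12. The mean level of the list was 5.20 and 5.40 in SD scAPs, 5.40 and 5.54 in HFD scAPs, 5.30 and 5.42 in SD viAPs, and 6.28 and 6.45 in HFD viAPs. Only 3 members were above log2 7 on at least 3 arrays, so that most of these genes were measured at low intensity. No member passed the test of the difference itself, and none was negative by 2-fold.

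Mki67, which encodes the proliferation antigen Ki-67, had log2 intensities of 6.04 and 5.70 in SD scAPs, 6.74 and 6.61 in HFD scAPs, 6.13 and 6.15 in SD viAPs, and 8.68 and 8.22 in HFD viAPs. It was higher on HFD on both arrays of either depot, by 2.31 in viAPs (adjusted p = 0.00251) and by 0.81 in scAPs (adjusted p = 0.0724). The diet by depot difference was 1.50 (SE 0.26, 95% interval 0.91 to 2.09, adjusted p = 0.186 in limma) and 1.51 without SD viAP 4. Ccnb2, a cyclin of mitotic entry, was at 6.63 and 6.00 in SD scAPs, 7.04 and 6.87 in HFD scAPs, 6.54 and 6.51 in SD viAPs, and 8.42 and 8.32 in HFD viAPs. Its difference was 1.20 (SE 0.28), or 1.19 without SD viAP 4.

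Anln, Hmmr, Prc1 and Top2a were chosen after their values were seen, as members of the list with large differences. Anln encodes anillin, a scaffold of the contractile ring. Its levels were 6.43 and 5.98 in SD scAPs, 6.36 and 6.07 in HFD scAPs, 6.13 and 6.11 in SD viAPs, and 8.42 and 8.09 in HFD viAPs. Only HFD viAPs stood apart, and the difference was 2.13 (SE 0.27, adjusted p = 0.177 in limma) with all arrays and 2.12 without SD viAP 4. Hmmr, a spindle protein, was between 4.58 and 4.86 on the 6 other arrays and at 6.73 and 6.25 in HFD viAPs, a difference of 1.74 (SE 0.25) with or without SD viAP 4. Prc1, which bundles the microtubules of the central spindle, was at 5.67 and 5.32 in SD scAPs, 6.27 and 6.04 in HFD scAPs, 5.58 and 5.64 in SD viAPs, and 8.00 and 7.72 in HFD viAPs. Its difference was 1.59 (SE 0.24), or 1.62 without SD viAP 4. Top2a, the topoisomerase that untangles replicated chromosomes, was at 6.09 and 5.58 in SD scAPs, 6.48 and 6.36 in HFD scAPs, 5.93 and 5.73 in SD viAPs, and 8.10 and 7.89 in HFD viAPs. Its difference was 1.59 (SE 0.26), and 1.48 without SD viAP 4. The list also held Ube2c, Cdca5 and Ska1, whose differences were -0.04, -0.12 and -0.15 (0.04, -0.15 and -0.08 without SD viAP 4), and Pttg1, the securin, at 0.20 (0.16).

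The promoters of these 4 genes are printed because the members of the list moved together and share short motifs that were not used to choose them (RefSeq, GRCm38.p6, 250 bases before to 50 after the start, 5′ to 3′). TTTGAA is the core of the cell cycle homology region, an element known from promoters of genes expressed in late cell cycle, and CCAAT is the box bound by nuclear factor Y. Both were searched as these letters on either strand, and a match on the opposite strand reads TTCAAA or ATTGG. Capitals mark the matches. The windows are chr9:22389157-22389456 (Anln, minus strand), chr11:40733388-40733687 (Hmmr, minus strand), chr7:80294201-80294500 (Prc1, plus strand) and chr11:99024140-99024439 (Top2a, minus strand).
Anln: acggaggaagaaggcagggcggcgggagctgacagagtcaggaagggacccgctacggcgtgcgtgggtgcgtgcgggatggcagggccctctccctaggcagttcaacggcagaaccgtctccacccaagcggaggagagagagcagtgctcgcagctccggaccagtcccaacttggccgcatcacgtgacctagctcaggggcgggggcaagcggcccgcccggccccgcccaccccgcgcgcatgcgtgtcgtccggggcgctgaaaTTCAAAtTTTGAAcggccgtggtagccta
Hmmr: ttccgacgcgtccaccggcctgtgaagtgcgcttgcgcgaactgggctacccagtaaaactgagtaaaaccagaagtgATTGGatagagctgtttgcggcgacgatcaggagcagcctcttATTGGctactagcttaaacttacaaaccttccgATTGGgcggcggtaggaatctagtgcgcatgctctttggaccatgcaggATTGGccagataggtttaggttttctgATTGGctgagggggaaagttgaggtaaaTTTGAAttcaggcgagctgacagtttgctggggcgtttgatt
Prc1: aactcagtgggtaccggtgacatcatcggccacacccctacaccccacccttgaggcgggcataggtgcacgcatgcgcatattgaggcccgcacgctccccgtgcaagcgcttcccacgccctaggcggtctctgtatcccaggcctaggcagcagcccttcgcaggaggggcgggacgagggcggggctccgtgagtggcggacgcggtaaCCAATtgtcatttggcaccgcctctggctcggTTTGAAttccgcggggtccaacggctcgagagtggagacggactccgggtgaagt
Top2a: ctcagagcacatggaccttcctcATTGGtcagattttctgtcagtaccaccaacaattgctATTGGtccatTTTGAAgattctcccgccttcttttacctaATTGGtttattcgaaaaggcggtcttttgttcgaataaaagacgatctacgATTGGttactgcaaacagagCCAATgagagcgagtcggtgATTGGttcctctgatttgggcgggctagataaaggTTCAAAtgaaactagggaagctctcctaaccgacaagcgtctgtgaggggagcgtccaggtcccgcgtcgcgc

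Anln held 2 matches to TTTGAA and 0 to CCAAT, Hmmr 1 and 5, Prc1 1 and 1, and Top2a 2 and 6. Of the 67 mitosis genes, 54 had a promoter in the table used. Among these, 39 (72.2%) held TTTGAA, against 4893 of all 27025 promoters (18.1%), and 40 (74.1%) held CCAAT, against 10248 (37.9%). Both motifs stood in 32 (59.3%) of the mitosis promoters and in 1925 (7.12%) of all promoters. A match is a description of the letters and not a measured binding site. The list was made of known mitosis genes, so these shares describe the list and not the diet result. Members with large and small differences were not compared.

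Genes of DNA replication had smaller differences than mitosis genes. Of 56 measured members 45 were positive, against 47.1% of all genes. The median was 0.27 (0.13 without SD viAP 4), and no member was negative by 2-fold. In viAPs 6 (10.7%) rose, a share near the 8.45% of all probe sets, and 0 rose without SD viAP 4. In scAPs 0 rose, with a share of 1.06% over all probe sets. The 3 members past 2-fold with 1 sign, against 0.767% of all genes, were Uhrf1, Rrm1 and Mcm6, with differences of 1.22, 1.13 and 1.01. All were under 2-fold without SD viAP 4, at 0.91, 0.95 and 0.66. Rrm1, the large subunit of ribonucleotide reductase, was at 7.84 and 7.28 in SD scAPs, 7.88 and 7.69 in HFD scAPs, 7.52 and 7.17 in SD viAPs, and 8.75 and 8.64 in HFD viAPs. Its viAP change was 1.35 (adjusted p = 0.00929) and its scAP change 0.22 (adjusted p = 0.637). Of the helicase subunits, Mcm3 and Mcm5 had differences of 0.67 and 0.66 (0.70 and 0.51 without SD viAP 4), and Mcm2 of 0.18 (0.02). Pcna, the sliding clamp of DNA polymerase, had a difference of -0.11, or -0.31 without SD viAP 4, with changes of 0.63 in viAPs and 0.74 in scAPs. The 95% intervals of 36 of the 56 members lay within 2-fold of no difference, against 83.2% of all probe sets. For mitosis genes this held for 18 of 67.

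**Figure D2:**
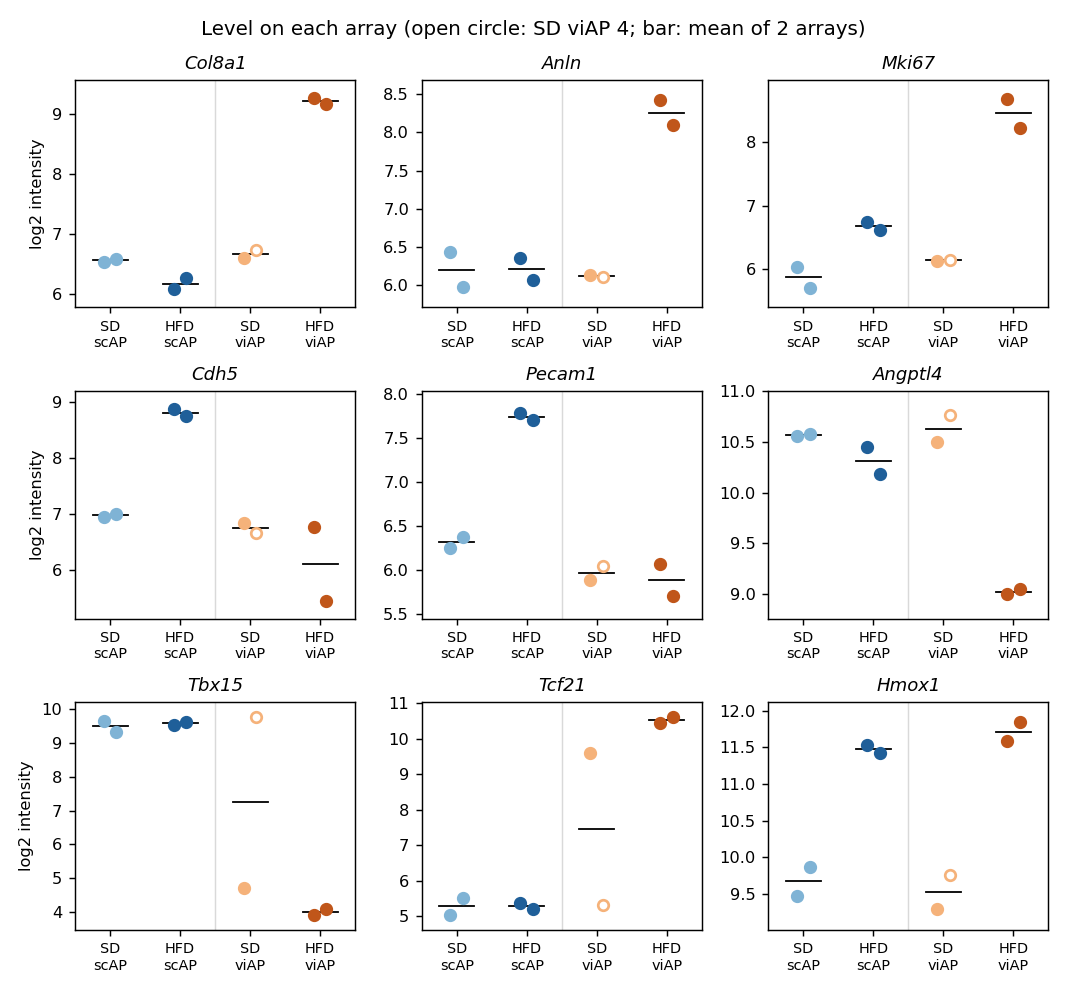
Log2 intensity of 9 genes on each of the 8 arrays, by group on the x axis (points, arrays; bars, means of 2 arrays; open circle, SD viAP 4; each panel has its own y range). HFD viAPs alone are high for Col8a1 and Anln and alone are low for Angptl4, HFD scAPs alone are high for Cdh5 and Pecam1, and SD viAP 4 lies with scAPs for Tbx15 and Tcf21.

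On the side of scAPs, endothelial markers were the list with the most members negative with 1 sign. Of 16 measured members, 12 were negative with 1 sign in all 16 single-array differences, and 8 of these by at least 2-fold (7 without SD viAP 4). Over all 19938 genes these counts with all arrays were 2060 and 92 (0.461%). The median difference was -1.04, or -0.88 without SD viAP 4, against -0.02 over all genes. In scAPs 8 of the 16 members rose, against 1.06% of all probe sets. Their scAP changes are the same without SD viAP 4, because no scAP array is left out. Fewer of them passed the test in that fit, which has 3 residual degrees of freedom in place of 4. In viAPs 1 (6.25%) rose, a share near the 8.45% of all probe sets, and 0 without SD viAP 4. The mean level of the list was 6.15 and 6.21 in SD scAPs, 7.03 and 6.98 in HFD scAPs, 6.04 and 6.12 in SD viAPs, and 5.94 and 5.80 in HFD viAPs. Only HFD scAPs stood apart. The beads used to isolate the cells remove cells carrying CD31, the product of Pecam1, and only 3 of the 16 markers were above log2 7 on at least 3 arrays. Fewer cells of a type and less RNA per cell cannot be told apart in these pools.

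Cdh5, the endothelial cadherin, was at 6.95 and 7.01 in SD scAPs, 8.88 and 8.74 in HFD scAPs, 6.85 and 6.67 in SD viAPs, and 6.77 and 5.46 in HFD viAPs. It rose by 1.83 in scAPs (adjusted p = 0.0482), and the diet by depot difference was -2.47 (SE 0.48, adjusted p = 0.266 in limma), or -2.56 without SD viAP 4. Pecam1 was at 6.25 and 6.38 in SD scAPs, 7.78 and 7.70 in HFD scAPs, 5.88 and 6.04 in SD viAPs, and 6.07 and 5.70 in HFD viAPs. It rose by 1.43 in scAPs (adjusted p = 0.0152), and its viAP change was -0.08. The difference was -1.51 (SE 0.22), or -1.43 without SD viAP 4. Kdr, a receptor for vascular endothelial growth factor, was at 6.25 and 5.98 in SD scAPs, 7.61 and 7.67 in HFD scAPs, 5.64 and 5.73 in SD viAPs, and 5.95 and 5.46 in HFD viAPs. Its difference was -1.50, or -1.46 without SD viAP 4. Flt1, another such receptor, rose by 1.00 in scAPs (adjusted p = 0.0317) and had a difference of -1.15, or -1.07 without SD viAP 4. Emcn and Robo4, both endothelial surface proteins, had differences of -2.21 and -1.50 (-2.45 and -1.49 without SD viAP 4). The other markers were closer to 0: Vwf, Cldn5 and Sox17 had differences of -0.46, -0.42 and -0.15 (-0.53, -0.33 and -0.12 without SD viAP 4). Tek, the angiopoietin receptor, which these cells carried at 8.97 to 10.23, rose in viAPs and had a difference of 0.24 (0.17 without SD viAP 4).

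Further genes known from endothelium stood at the negative end and were chosen after their values were seen. Ceacam1, an adhesion molecule, had a difference of -2.13 (SE 0.24, adjusted p = 0.143 in limma), or -2.11 without SD viAP 4. Its levels were 5.21 and 4.95 in SD scAPs, 6.55 and 6.49 in HFD scAPs, 5.70 and 5.73 in SD viAPs, and 5.25 and 4.81 in HFD viAPs. It rose in scAPs by 1.44 and in viAPs it fell by 0.69. Adgrl4, an endothelial adhesion receptor, and Ptprb, the endothelial receptor phosphatase, had differences of -2.12 and -1.64 (-2.18 and -1.59 without SD viAP 4). Pde2a, a cyclic nucleotide phosphodiesterase, rose by 1.38 in scAPs (adjusted p = 0.0254) and had a difference of -1.70, or -1.43 without SD viAP 4. Rgs5, a pericyte gene, was at 5.67 and 5.46 in SD scAPs, 6.71 and 6.87 in HFD scAPs, 5.75 and 5.55 in SD viAPs, and 5.78 and 4.95 in HFD viAPs, a difference of -1.51, or -1.61 without SD viAP 4. Over the 10 pericyte and smooth muscle markers the median was -0.15, or -0.14 without SD viAP 4. In that list 4 differences were positive, and 0 members rose in scAPs, against 1.06% of all probe sets. Past 2-fold in the negative direction were Rgs5 and Abcc9 (-1.91, or -1.01 without SD viAP 4). Des was past it in the positive direction (1.44, or 0.18 without SD viAP 4).

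The 7 committed preadipocyte markers all had a negative difference, with a median of -1.02 (-0.79 without SD viAP 4, when Lpl and Icam1 were at 0.06 and 0.11). Over all genes 47.1% had a positive difference. The 4 markers past 2-fold with 1 sign, against 0.461% of all genes, were Cd36, Pparg, Fabp4 and Plin2, and without SD viAP 4 Plin2 was at -0.79. No marker passed the test in either depot or for the difference. The mean level of the list was 9.02 and 9.28 in SD scAPs, 9.75 and 9.60 in HFD scAPs, 8.50 and 9.24 in SD viAPs, and 8.51 and 8.30 in HFD viAPs, so that both HFD scAP arrays were above all others and SD viAP 4 lay with SD scAPs. Endothelial cells of small vessels also express Cd36 and Fabp4. The endothelial markers were highest on the same HFD scAP arrays, with mean levels of 7.03 and 6.98, and their part in this result was not tested.

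Pparg was at 7.18 and 7.61 in SD scAPs, 8.35 and 8.41 in HFD scAPs, 7.17 and 7.89 in SD viAPs, and 7.16 and 7.08 in HFD viAPs. The scAP diet groups did not overlap, with a change of 0.99 (adjusted p = 0.0794), and the diet by depot difference was -1.40 (SE 0.33, adjusted p = 0.343 in limma), or -1.04 without SD viAP 4. Cd36, a fatty acid transporter, was at 9.33 and 9.68 in SD scAPs, 9.97 and 9.91 in HFD scAPs, 7.29 and 9.10 in SD viAPs, and 6.82 and 6.21 in HFD viAPs. Its difference of -2.12 (SE 0.68) became -1.22 without SD viAP 4. Fabp4, the fatty acid binding protein of adipocytes, was at 8.76 and 9.48 in SD scAPs, 9.76 and 9.99 in HFD scAPs, 8.69 and 9.43 in SD viAPs, and 8.62 and 8.25 in HFD viAPs. Its difference was -1.38, or -1.01 without SD viAP 4. Lpl, the lipase that frees fatty acids from circulating triglyceride, and Dlk1, a marker of undifferentiated preadipocytes, had differences of -0.36 and -0.24 (0.06 and -0.45 without SD viAP 4). Among 23 adipogenic transcription factors the median was 0.02, or -0.03 without SD viAP 4, and Pparg was the only one past 2-fold.

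Several genes of lipid handling had negative differences and lower levels in HFD viAPs than in SD viAPs. Angptl4, a secreted inhibitor of lipoprotein lipase and a target of PPAR receptors, was at 10.56 and 10.58 in SD scAPs, 10.45 and 10.18 in HFD scAPs, 10.50 and 10.76 in SD viAPs, and 9.0 and 9.05 in HFD viAPs. Only HFD viAPs stood apart, where Angptl4 fell by 1.60 (adjusted p = 0.00251). The diet by depot difference was -1.35 (SE 0.21, 95% interval -1.83 to -0.87, adjusted p = 0.186 in limma), or -1.22 without SD viAP 4. Pdk4, the kinase that turns off pyruvate dehydrogenase, fell by 1.07 in viAPs (adjusted p = 0.0253), and its difference of -1.07 became -0.68 without SD viAP 4. Aqp7, a glycerol channel, was at 7.17 and 7.11 in SD scAPs, 8.12 and 7.79 in HFD scAPs, 6.29 and 6.94 in SD viAPs, and 5.78 and 5.43 in HFD viAPs. It fell by 1.01 in viAPs (adjusted p = 0.0302) and its scAP change was 0.82 (adjusted p = 0.119), a difference of -1.83 (SE 0.32), or -1.50 without SD viAP 4. Cpt1a, which carries fatty acids into mitochondria, had a difference of 0.86, or 0.62 without SD viAP 4. Over the 28 genes of fatty acid oxidation and PPAR targets the median was -0.07 (-0.03 without SD viAP 4), with 5 past 2-fold in the negative direction (3 without SD viAP 4), some of which are also committed preadipocyte markers. Of all 19938 genes, 109 were past 2-fold in the negative direction with all arrays.

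The list of 34 chemokines and cytokines had a median of -0.05 (0.09 without SD viAP 4), with 16 positive members and 2 past 2-fold with 1 sign in either direction (4 positive and 3 negative without SD viAP 4). Over all genes 47.1% were positive, and 0.767% and 0.461% were past 2-fold with 1 sign in the positive and negative direction. Il6, an inflammatory cytokine, was among the positive members of the list, with a difference of 1.12, or 0.66 without SD viAP 4. Cxcl13, a chemokine that attracts B cells, was at 12.29 and 11.89 in SD scAPs, 10.50 and 11.02 in HFD scAPs, 11.08 and 12 in SD viAPs, and 7.38 and 7.74 in HFD viAPs. It was lower on HFD on every array of both depots, and fell by 3.98 in viAPs (adjusted p = 0.00251), with a scAP change of -1.33 (adjusted p = 0.0754). The diet by depot difference was -2.65 (SE 0.44, adjusted p = 0.186 in limma), or -2.19 without SD viAP 4. Cxcl14, a chemokine of stromal cells, was at 8.75 and 9.15 in SD scAPs, 10.77 and 10.47 in HFD scAPs, 7.98 and 9.34 in SD viAPs, and 8.48 and 8.29 in HFD viAPs. Here HFD scAPs were the high group, and the difference of -1.94 became -1.26 without SD viAP 4. Outside that list, Angptl1, an angiopoietin-related secreted protein, had a difference of -1.82, or -1.26 without that array. Car3, a cytosolic carbonic anhydrase abundant in fat, fell by 3.43 in viAPs (adjusted p = 0.00351), with a scAP change of -1.69 (adjusted p = 0.0575). Its difference was -1.74, or -1.89 without SD viAP 4. Srgn, the core of the serglycin proteoglycan, fell by 1.17 in viAPs (adjusted p = 0.0119) and had a difference of -1.52, or -1.80 without SD viAP 4.

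Several genes with positive differences were above log2 7 on at least 3 arrays. Ccn2, a matricellular protein induced by TGF-beta and YAP, was at 7.67 and 7.57 in SD scAPs, 8.24 and 8.09 in HFD scAPs, 7.92 and 7.51 in SD viAPs, and 9.81 and 9.50 in HFD viAPs. It rose by 1.94 in viAPs (adjusted p = 0.00251), the scAP change was 0.55 (adjusted p = 0.169), and the difference was 1.39 (SE 0.25, adjusted p = 0.191 in limma), or 1.18 without SD viAP 4. Hk2, an inducible hexokinase, was at 8.75 and 9.0 in SD scAPs, 10.01 and 9.84 in HFD scAPs, 8.04 and 8.10 in SD viAPs, and 10.18 and 10.27 in HFD viAPs. It rose in both depots, by 2.16 in viAPs and 1.05 in scAPs, and the HFD levels of the depots were closer than their SD levels. The difference was 1.11 (SE 0.20), or 1.14 without SD viAP 4. Ptger4, a prostaglandin E2 receptor, rose by 2.16 in viAPs (adjusted p = 0.00681) and had a difference of 1.59, or 1.09 without SD viAP 4. Tnfrsf11b, the decoy receptor osteoprotegerin, rose by 1.37 in viAPs and had a difference of 1.94, or 1.48 without SD viAP 4. Bmp6 and Vegfc, growth factors of bone formation and lymphatic vessels, had differences of 1.22 and 1.16, and both were under 2-fold without SD viAP 4, at 0.79 and 0.81. Pi15, a secreted protease inhibitor, had a difference of 1.57, or 1.45 without SD viAP 4. Hnrnpc, an RNA binding protein, was at 8.41 and 8.54 in SD scAPs, 8.05 and 8.08 in HFD scAPs, 7.16 and 7.46 in SD viAPs, and 8.20 and 8.21 in HFD viAPs. Its SD viAP arrays were the low ones, and the difference was 1.31 (SE 0.20), or 1.46 without SD viAP 4.

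Of 36 matrix glycoproteins and proteoglycans 29 had a positive difference, against 47.1% of all genes. The median was 0.32 both with and without SD viAP 4. Positive by at least 2-fold with 1 sign were 2, against 0.767% of all genes. Without SD viAP 4, 5 members were positive and 1 was negative in this way. Of 30 collagens and basement membrane genes 14 were positive and Col8a1 was the only one past 2-fold. Their median was -0.02, or 0.30 without SD viAP 4. Matn2, a matrilin that links matrix fibres, was at 7.10 and 6.73 in SD scAPs, 6.15 and 6.44 in HFD scAPs, 9.34 and 6.49 in SD viAPs, and 10.42 and 10.31 in HFD viAPs. SD viAP 4 was again at the scAP level, and the difference of 3.06 (SE 1.00, adjusted p = 0.564 in limma) became 1.64 without it. Hmcn1, which encodes the very long matrix protein hemicentin, is covered by 77 probe sets, all with a positive difference. Their median was 1.12 and their range 0.14 to 2.60, and 43 were past 2-fold with 1 sign (19 without SD viAP 4, median 0.67). These probe sets read 1 transcript and count as 1 gene. The 16 probe sets of Adamts3, a procollagen protease, were all positive as well, with a median of 0.80, or 0.55 without SD viAP 4. Timp1, an inhibitor of metalloproteinases, was at 8.98 and 8.74 in SD scAPs, 7.71 and 7.83 in HFD scAPs, 8.65 and 8.47 in SD viAPs, and 8.54 and 8.21 in HFD viAPs. It fell by 1.1 in scAPs (adjusted p = 0.0277), the viAP change was -0.19, and the difference was 0.91 (SE 0.23, adjusted p = 0.395 in limma), or 0.82 without SD viAP 4.

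The largest negative difference of all belonged to a gene of depot identity and rested on SD viAP 4. Tbx15, a transcription factor of subcutaneous fat, was at 9.67 and 9.34 in SD scAPs, 9.53 and 9.63 in HFD scAPs, 4.70 and 9.77 in SD viAPs, and 3.91 and 4.09 in HFD viAPs. Its difference was -3.32 (SE 1.75, adjusted p = 0.721 in limma) with all arrays and -0.79 without SD viAP 4. Mmp3, stromelysin, was at 11.60 and 11.16 in SD scAPs, 10.97 on both arrays in HFD scAPs, 7.44 and 11 in SD viAPs, and 5.52 on both arrays in HFD viAPs. Its difference of -3.29 became -1.51. Tcf21, a transcription factor of visceral precursors, was at 5.04 and 5.52 in SD scAPs, 5.36 and 5.21 in HFD scAPs, 9.61 and 5.32 in SD viAPs, and 10.43 and 10.61 in HFD viAPs. Its difference of 3.06 (SE 1.48) became 0.91. Wt1, another factor of visceral precursors, and Hoxc10, a homeobox gene of the hind trunk, went from 1.85 to 0.48 and from -1.77 to -0.68 without that array. The 2 probe sets of Col6a5, a collagen VI chain, had differences of 2.63 and 3.79, the latter the highest of all, and 0.96 and 1.33 without SD viAP 4. Over 25 subcutaneous identity genes the median was -0.30, or -0.11 without SD viAP 4, and over 20 visceral identity genes it was 0.02 either way.

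For other genes the direction itself turned when SD viAP 4 was left out. Sfrp2, a modulator of Wnt signalling, went from -0.49 to 0.25, and Ccl8, a chemokine, from -0.40 to 1.23. Thbs1, the matrix glycoprotein thrombospondin-1, was at 9.13 and 9.65 in SD scAPs, 10.77 and 10.39 in HFD scAPs, 11.54 and 9.45 in SD viAPs, and 12.63 and 12.33 in HFD viAPs, and went from 0.79 to -0.25. Igfbp5, a binding protein of insulin-like growth factors, went from -1.20 to 0.49, and Lcn2, lipocalin-2, from 0.74 to -1.55. Differences that were larger without the array included Postn, the matrix protein periostin (0.78 to 1.50), Ifit1, an interferon-induced gene (0.98 to 1.84), Cxcl10, an interferon-induced chemokine (0.63 to 1.53), and Sfrp4, a secreted Wnt antagonist (0.57 to 1.61). Each of these had arrays SD viAP 3 and 4 on different levels, for Postn 10.76 and 12.21. Of the 356 probe sets past 2-fold with all arrays, 172 stayed past 2-fold with the same sign without SD viAP 4 and 7 changed sign. Another 76 were past 2-fold only without it.

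**Figure D3:**
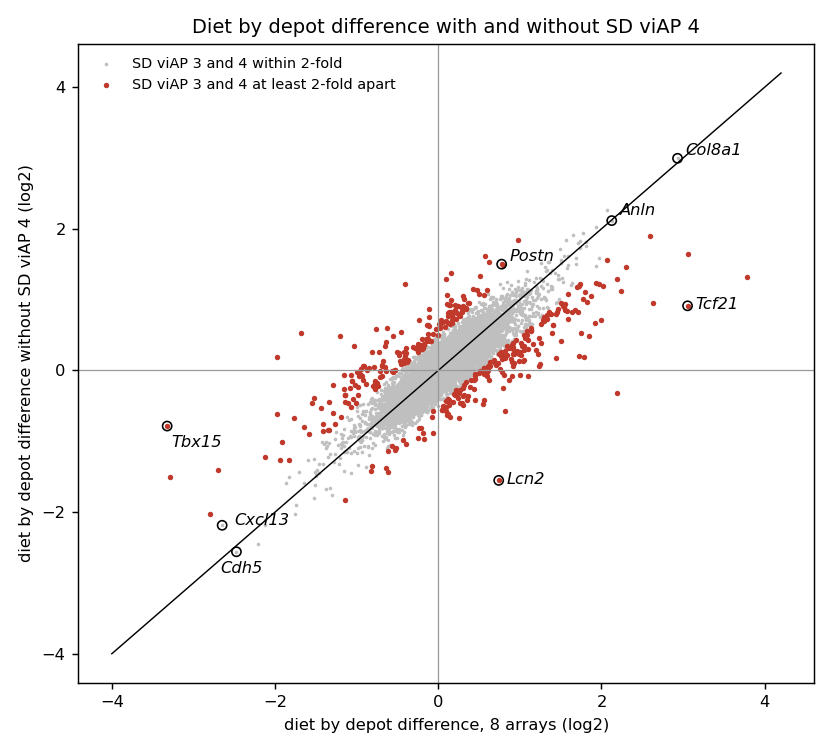
Diet by depot difference of each probe set with all 8 arrays (x axis) and with SD viAP 4 left out (y axis), both on the log2 scale; red points are probe sets with SD viAP 3 and 4 at least 2-fold apart, and the line marks equal values. Col8a1, Anln, Cdh5 and Cxcl13 lie near the line, Tbx15 moves from -3.32 to -0.79 and Tcf21 from 3.06 to 0.91, and Lcn2 changes sign.

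Hmox1, which encodes the heme-degrading enzyme HO-1, had no detectable difference between the depots. Its levels were 9.48 and 9.86 in SD scAPs, 11.54 and 11.42 in HFD scAPs, 9.29 and 9.75 in SD viAPs, and 11.59 and 11.84 in HFD viAPs. It rose by 2.19 in viAPs (adjusted p = 0.00251) and by 1.81 in scAPs (adjusted p = 0.0152). The difference was 0.38 (SE 0.28, 95% interval -0.26 to 1.02, adjusted p = 0.805 in limma), or 0.61 without SD viAP 4. The interval reaches just past 2-fold in the direction of viAPs. The 30 genes of the NRF2 and heme list had differences from -0.33 to 0.72 with a median of 0.17. They ran from -0.44 to 0.68 with a median of 0.07 without SD viAP 4. Of their 30 intervals, 24 lay within 2-fold of no difference, a share near the 83.2% of all probe sets. Pdgfra had a difference of 0.28 (95% interval -0.17 to 0.72), or 0.41 without SD viAP 4. The macrophage gene Cd68 and the adipocyte gene Adipoq were at -0.14 and 0.20, and at -0.59 and 0.82 without SD viAP 4.

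Several further groups had no member past 2-fold with all arrays. Sqle and Fdft1 of the sterol list were past it without SD viAP 4. The 24 genes of sterol synthesis and uptake rose in part in either depot, 9 in viAPs and 9 in scAPs. They had differences from -0.98 to 0.63 with a median of -0.11, or -0.30 without SD viAP 4. With all arrays, 9 members were 37.5% of the list in either depot, against 8.45% of all probe sets in viAPs and 1.06% in scAPs. Sqle, squalene epoxidase, was at 5.86 and 6.34 in SD scAPs, 8.38 and 8.26 in HFD scAPs, 6.89 and 6.19 in SD viAPs, and 7.75 and 7.81 in HFD viAPs. It rose by 2.22 in scAPs and by 1.24 in viAPs, and its difference was -0.98 (SE 0.34, adjusted p = 0.592 in limma), or -1.34 without SD viAP 4. Idi1, an isomerase of the same pathway, rose by 2.21 and 1.60 in scAPs and viAPs, with a difference of -0.61, or -0.98 without SD viAP 4. Fdft1, squalene synthase, in the probe set used for the list, went from -0.60 to -1.05. The 18 heat shock genes had differences from -0.61 to 0.76, the 17 circadian genes from -0.59 to 0.62, and the 21 genes of fatty acid synthesis from -0.61 to 0.62, and none of these was past 2-fold without SD viAP 4. The 45 ribosomal protein genes and 47 genes of oxidative phosphorylation had medians of -0.05 and 0.07 (-0.01 and 0.08 without SD viAP 4). In each list 41 intervals lay within 2-fold of no difference, against 83.2% of all probe sets.

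**Figure D4:**
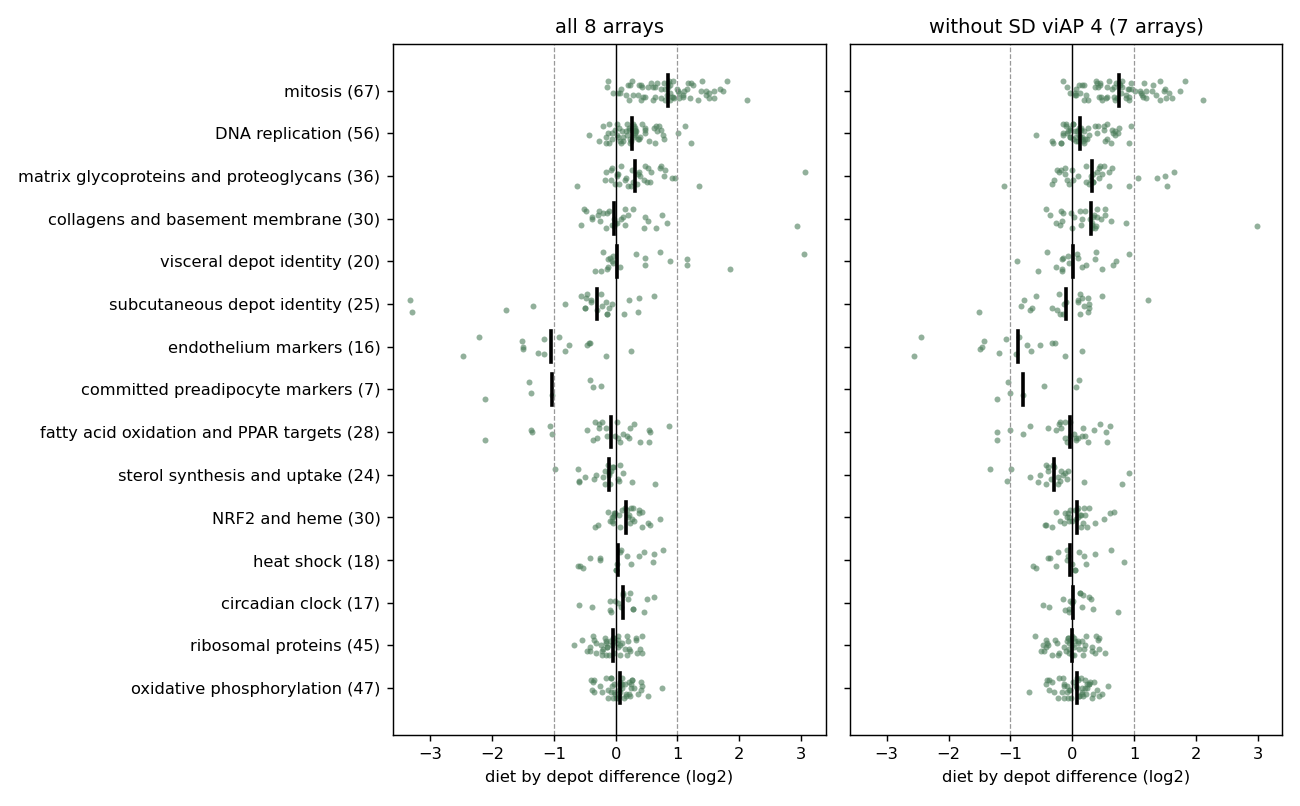
Diet by depot difference (x axis, log2) of each member of 15 gene lists (rows, number of measured genes in brackets), with all 8 arrays on the left and without SD viAP 4 on the right; points are genes, thick bars list medians and dashed lines 2-fold. Mitosis genes lie to the right with a median of 0.85, endothelial and committed preadipocyte markers to the left with medians of -1.04 and -1.02, and the outlying depot identity genes move towards 0 in the right panel.

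A filter that keeps only probe sets above log2 7 on at least 3 arrays removes genes that pass that level in 1 group alone. Of the probe sets above log2 7 on both arrays of 1 group and on no other array, 95 belonged to HFD viAPs, of which 22 had a difference of at least 2-fold. Col8a1, Anln, Mki67, Prc1 and Top2a were among the genes the filter removes. For HFD scAPs there were 37 such probe sets, 10 of them past 2-fold, and Pecam1 and Kdr were among the genes removed. For SD viAPs and SD scAPs there were 22 and 10, and 0 of these were past 2-fold.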

How the data were processed

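Levels were measured on 8 Affymetrix Mouse Gene 1.0 ST arrays, 2 per group, and conditions were taken from the sample labels. Each probe set has 1 intensity per array in the table the authors deposited, a whole number on a linear scale. RMA and Affymetrix Expression Console 1.1 are listed in the submitters' processing notes, and an R package with quantile normalization in the methods. Rounding is coarse at the lowest intensity, which was 4. Here log2 of the deposited intensities was taken without rescaling, and all per-sample columns were used. Probe sets with several symbols (1621) or none (12146) were not tested. Symbols were checked by Entrez ID against RefSeq, which found 21698 probe sets and changed 0 symbols.

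For all 21789 probe sets with 1 symbol, limma 3.58.1 (R 4.3.3, lmFit and eBayes) estimated the 4 group means, and the contrast of interest was the diet by depot difference. Benjamini-Hochberg adjustment covered all of them. The study's methods filter probe sets on level and spread (3076 remain), and this filter was an alternative here, because it removes genes above background in 1 group only. Other alternatives were the level filter alone, an offset of 16 before the log2, centring, quantile normalization, a trend, no moderation, array weights, 1 probe set per symbol and leaving out each array. The procedure was run on simulated data. No simulated replicate departed from its group as SD viAP 4 does from SD viAP 3, so that case was not covered. Of several probe sets for a gene, lists took that of the highest mean. Plots were made in matplotlib 3.10.9 (Python 3.11.15). Precision is limited by having 2 arrays a group.

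Genes were named by rule: those called, the 12 at each end among genes above log2 7 on at least 3 arrays with 1 sign over the single-array combinations, the same without SD viAP 4, at most 4 members per list by size above that level, genes the study names, and markers of other cell types. Other members of the lists, and Adgrl4, Anln, Ceacam1, Hmmr, Prc1, Ptprb and Top2a, were chosen after their values were seen. The gene lists, comparisons and this rule were chosen with earlier results of these data known.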

Additional observations from a re-analysis of the deposited data

Results flagged for a closer look

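Col8a1 was singled out because its diet change differed between viAPs and scAPs by the test itself, with a difference of 2.93 on the log2 scale.

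For further genes every HFD array lay on one side of the SD arrays in viAPs and on the opposite side in scAPs, while the difference did not pass the limma test, so that opposite directions are a description. Higher on HFD in viAPs and lower in scAPs were Col6a5 in both of its probe sets (differences of 2.63 and 3.79), Matn2 (3.06), Tnfrsf11b (1.94), Aldh1a2, an enzyme of retinoic acid synthesis (1.93), and Hnrnpc (1.31). Lower on HFD in viAPs and higher in scAPs were Mme, a cell surface peptidase (-2.70), Cd36 (-2.12), Aqp7 (-1.83), Hoxc10 (-1.77), Srgn (-1.52) and Flt1 (-1.15). Without SD viAP 4 the difference was 0.68 for Aldh1a2 and -1.40 for Mme. Over all 21789 probe sets, 273 (1.25%) showed opposite directions in the first sense and 294 (1.35%) in the second, of which 55 and 35 were past 2-fold with 1 sign.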

How the results depend on the processing

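The call of Col8a1 depended on the set of arrays and genes tested. The number of probe sets called was 1 with all arrays and 0 under the filter of the methods as rebuilt here and under the level filter. Both filters drop Col8a1. It ran from 0 to 106 when each array was left out. It was 106 without SD viAP 3 (68 positive, 38 negative) and 0 without each of the other arrays in turn. Of these 106 probe sets, 79 had SD viAP 3 and 4 at least 2-fold apart, 34 were past 2-fold with the same sign without SD viAP 4, and 13 had the opposite sign. Called only then among the genes recomputed were Tcf21 (5.20), Matn2 (4.49), Tbx15 (-5.86), Mmp3 (-5.07), Cxcl13 (-3.11), Cd36 (-3.02) and Aqp7 (-2.16). The 286 probe sets at an unadjusted p under 0.05 and 2-fold became 105 under the filter of the methods, 113 under the level filter, 167 with the offset and 160 without moderation, and ran from 207 to 626 when each array was left out, the highest without SD viAP 3. The 308 with 1 sign became 126 under either filter and 192 with the offset, and ran from 244 to 656, with 656 without SD viAP 3 and 506 without SD scAP 2. Filters leave fewer genes to count, and the cause of the other changes was not tested.

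The median of the mitosis list was 0.67 with the offset and ran from 0.73 to 0.94 over left-out arrays. The endothelial median was -0.42 over its 3 members above log2 7 and -0.81 with the offset, and ran from -1.17 to -0.87. The committed preadipocyte median ran from -1.26 to -0.75 and that of subcutaneous identity genes from -0.54 to -0.11. The visceral identity median was 0.67 over its 8 members above log2 7 and ran from -0.09 to 0.33, with -0.09 without HFD viAP 6, -0.07 without HFD scAP 8 and 0.33 without SD viAP 3. All 23 single genes recomputed, a selection of those named, kept 1 direction under every alternative run. That selection did not hold Lcn2, Thbs1, Sfrp2, Ccl8 or Igfbp5, whose direction turned when an SD viAP array was left out. Cxcl10, also outside the selection, went from 0.63 to -0.28 without SD viAP 3. The labels number the arrays from 1 to 8 across groups. No paired analysis was possible because the groups share no replicate number.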
